A study of Mus musculus with 8 samples.

Results

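The genes examined here are 10 that glucocorticoids induce in many tissues: Fkbp5, Tsc22d3, Sgk1, Klf9, Zbtb16, Ddit4, Nfkbia, Cebpd, Errfi1 and Pdk4. They were chosen by name, with earlier results of these data known, so a count of them beside the share over all genes is no test. Each had 1 probe on the array, and they are 10 of the 31660 gene names on it. Expression was measured on 1-colour arrays in early erythroid progenitors from the fetal liver of C57BL/6 mice at E14.5. Cells carrying lineage markers, Sca-1, CD16/32, CD41 or CD34 had been removed, and c-kit positive cells among the lowest 10% for CD71 had been sorted. The cells were infected and then grown for 3 days, in 4 groups of 2 arrays each: a virus encoding a first short hairpin RNA (shRNA1) with DEX, a virus encoding a second one (shRNA2) with DEX, a control virus with DEX, and the control virus without DEX. DEX stands for a glucocorticoid, as the title of the series has it. The hairpins are directed against an RNA-binding protein that the labels leave unnamed; that it is Zfp36l2, which promotes the decay of AU-rich mRNAs, comes from knowledge of the published study. No group with a hairpin and without DEX is among the labels, so a hairpin group can be set only against the control virus, with or without DEX. The promoter of the hairpins, the vector and the share of infected cells were not found in the labels. The labels do not say whether the 2 arrays of a group came from separate cultures, and the spread behind each p-value is that between these arrays and may be technical.

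Glucocorticoids bind the glucocorticoid receptor, encoded by Nr3c1, which is held by Hsp90 and its co-chaperones in the cytoplasm and moves to the nucleus once bound. There it binds DNA elements built from inverted copies of a short half-site and raises transcription of nearby genes, many of which encode brakes on hormone, growth factor or inflammatory signalling. In erythroid progenitors, glucocorticoids are known to favour self-renewal over maturation during stress erythropoiesis.

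A level is the log2 processed signal of a probe minus the 75th percentile of its array, so a level of 0 lies at that percentile, and a difference of 1 is a doubling of the signal. One array of each group lay on slide 1 and the other on slide 2; values of a pair are given for slide 1 first. Before scaling, the 75th percentile (log2) was lower in the hairpin groups on each slide. It was 8.80 and 10.36 with shRNA1, and 8.90 and 10.54 with shRNA2. With the control virus it was 9.77 and 10.87 with DEX, and 9.85 and 10.77 without. The part of this dimmer signal in the differences of dim genes was not tested. Between 22972 and 24382 probes per array were well above background, and 19130 genes were tested. The 9 erythroid markers tested were above background on all 8 arrays. Their summed relative signal was 602 to 1671 with shRNA1, 440 to 1229 with shRNA2, 410 to 858 with the control virus and DEX, and 537 to 1024 without DEX, higher on slide 1 in every group. The globin gene Hba-a1 and Alas2 had the highest means of these markers. A sum of linear signals weighs the brightest genes most, so it is no measure of the early stage of the cells. Zfp36l2 itself had levels of 4.18 and 4.05 with shRNA1 and DEX, 4.25 and 3.86 with shRNA2 and DEX, 5.70 and 5.56 with the control virus and DEX, and 3.61 and 3.98 without DEX, so that both hairpin groups lay under the control virus with DEX on each slide. That difference, -1.52 with shRNA1 and -1.58 with shRNA2 (SE 0.31 each), did not pass in limma after Benjamini-Hochberg adjustment over all genes (adjusted p = 0.929 and 1).

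Of the 10 genes, 9 were well above background on all 8 arrays, so that the filter on dim probes chose none of them by a difference between groups. Pdk4 was well above background on 0 of 8 arrays and was not tested. Across the 9, the level was higher in control cells with DEX than without it for 8, with a median difference of 0.72, against -0.06 over all genes. Of the 9, 7 were higher on both slides (24.8% of all genes were), and for 5 the groups did not overlap (10.8% of all genes were higher without overlap). At least 2-fold on both slides were 2 of the 9, Fkbp5 and Tsc22d3, against 1.69% of all genes. No member passed an adjusted p of 0.05 in limma, and neither did any other gene (0% called; smallest adjusted p over all genes 0.148, and 598 genes, or 3.13%, at an unadjusted p under 0.05, among them Fkbp5 and Tsc22d3). When the slide was fitted as a block, 45 genes passed in limma (0.235%), of which 0 were members, and Fkbp5 came nearest (adjusted p = 0.0630). In that fit 6 members were higher at an unadjusted p under 0.05, where 4.3% of all genes were. In bulk RNA such as this, fewer cells of a type and less RNA per cell cannot be told apart.

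**Figure D1:**
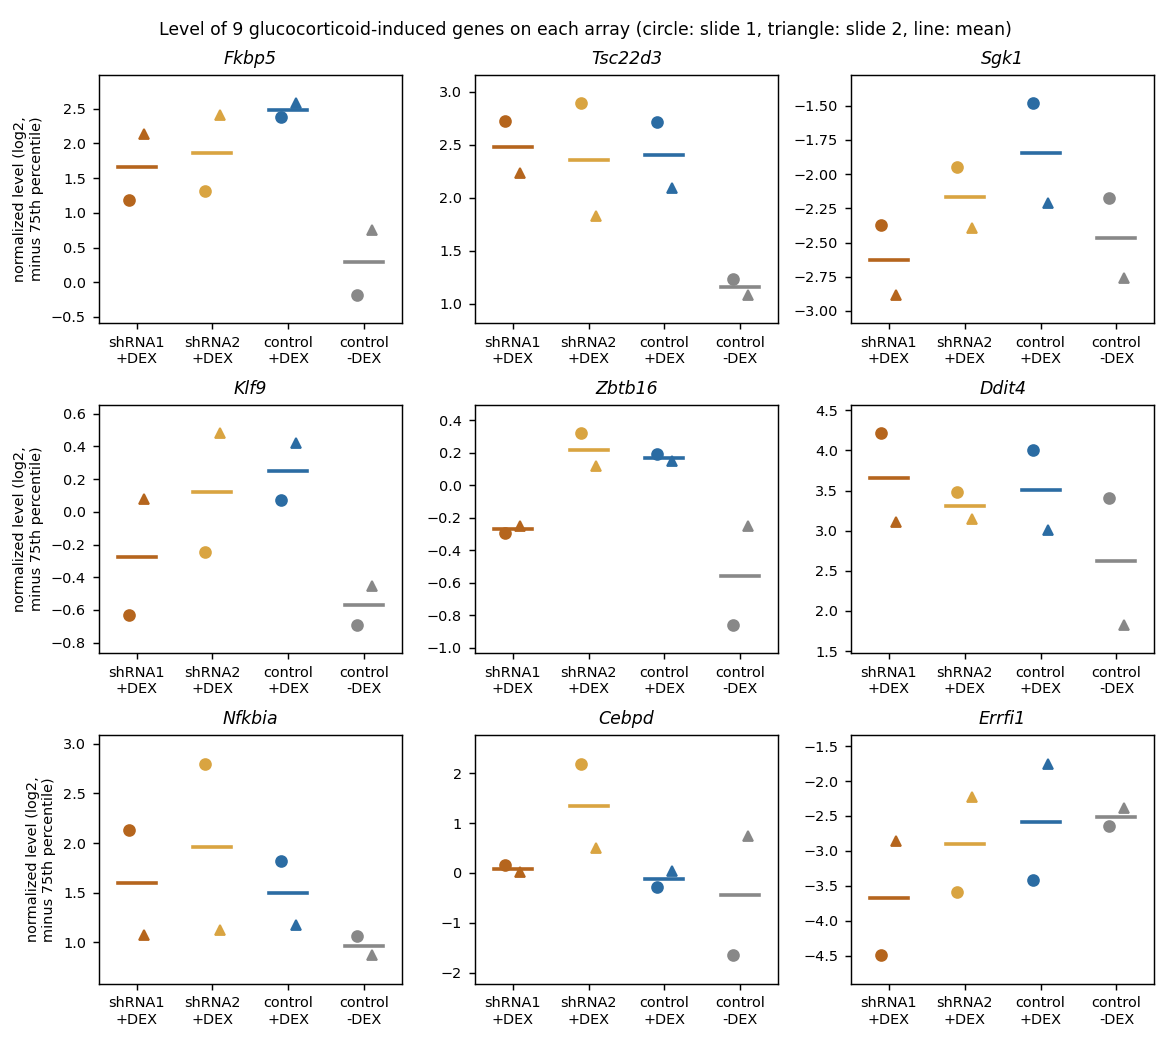
Level (log2 signal relative to the 75th percentile of the array) of the 9 genes above background, 1 panel per gene, with 1 point per array marked by slide and a bar at the mean of each group of 2. In the panels of Fkbp5 and Tsc22d3 all 6 arrays with DEX lie above both arrays without DEX, by at least 0.44 and 0.59.

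The upstream sequences of 3 of the genes are shown because they hold, or lack, the receptor's DNA element. RefSeq (build GRCm38.p6) gave 16 transcription starts for 8 of the genes; Zbtb16 and Cebpd had no entry. In the 250 bases before each start, both strands were searched for the palindromic element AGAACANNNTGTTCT and for its half-site TGTTCT, read as AGAACA on the other strand; the element contains both half-sites. The element stood before 1 of the 16 starts, one of 6 of Sgk1, 189 bases before it, and before 3 of all 32851 starts (0.00913%). A half-site stood before 4 of the 16 starts, 3 of Sgk1 and 1 of Tsc22d3, against 16.1% of all starts. The sequences below run 5′ to 3′ on the strand of the gene and end at the base before the start, with half-sites in capitals. Sgk1 lies at chr10:21993640-21993889, plus strand. Tsc22d3, at chrX:140600523-140600772, minus strand, has a half-site 185 bases before the start. Fkbp5, at chr17:28486150-28486399, minus strand, has none in this window.
Sgk1: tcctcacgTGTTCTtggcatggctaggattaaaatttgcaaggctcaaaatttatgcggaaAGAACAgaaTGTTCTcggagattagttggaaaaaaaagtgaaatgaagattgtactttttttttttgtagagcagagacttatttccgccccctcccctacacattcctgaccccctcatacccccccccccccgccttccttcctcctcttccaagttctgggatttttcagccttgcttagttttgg
Tsc22d3: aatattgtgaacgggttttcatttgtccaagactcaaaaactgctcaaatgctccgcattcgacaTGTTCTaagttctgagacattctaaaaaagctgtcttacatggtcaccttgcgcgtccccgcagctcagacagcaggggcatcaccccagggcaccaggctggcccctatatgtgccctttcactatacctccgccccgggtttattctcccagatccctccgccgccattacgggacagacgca
Fkbp5: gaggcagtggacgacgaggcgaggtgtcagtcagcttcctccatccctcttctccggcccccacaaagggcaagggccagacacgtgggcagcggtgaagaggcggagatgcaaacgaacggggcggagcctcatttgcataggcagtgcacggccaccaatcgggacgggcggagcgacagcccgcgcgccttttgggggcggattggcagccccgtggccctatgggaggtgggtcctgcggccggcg
A match is a description of letters and says nothing on binding, and no array value here assigns a transcript to one start.

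Fkbp5 encodes an Hsp90 co-chaperone that lowers the affinity of the receptor for its hormone, and so acts as its feedback inhibitor (probe on chromosome 17, 28536060 to 28536119, minus strand; all probe positions here are those of the files, build mm9). Its level was 1.19 and 2.14 with shRNA1 and DEX, 1.31 and 2.41 with shRNA2 and DEX, 2.38 and 2.58 with the control virus and DEX, and -0.18 and 0.75 without DEX. Every array with DEX was above both arrays without it. In control cells the difference with DEX was 2.20, a fold of 4.58 (unadjusted 95% interval 0.85 to 3.55; 2.56 and 1.83 on the slides), the largest of the 9 and at percentile 99.4 of all genes. Against the control virus without DEX, shRNA1 with DEX was higher by 1.38 (interval 0.03 to 2.73; 1.37 and 1.39 on the slides) and shRNA2 with DEX by 1.58 (0.23 to 2.92; 1.49 and 1.66). Both hairpin groups lay between the control groups on each slide. Set against the control virus with DEX, the difference was -0.82 with shRNA1 (interval -2.17 to 0.53; -1.19 and -0.44 on the slides), with no overlap, and -0.62 with shRNA2 (-1.97 to 0.73; -1.07 and -0.17), with overlap. These intervals hold 0; with the slide as a block they were -1.50 to -0.14 for shRNA1, which excludes 0, and -1.30 to 0.06 for shRNA2 (limma adjusted p = 0.271 and 0.776). The order of means was control virus with DEX (2.48 ± 0.14, SD, n = 2), shRNA2 (1.86 ± 0.77), shRNA1 (1.66 ± 0.67) and control virus without DEX (0.28 ± 0.65), and the 2 hairpin groups differed by less than their spread.

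Tsc22d3 encodes GILZ, a leucine zipper protein that holds back NF-kappaB and AP-1 (chromosome X, 137074094 to 137074153, minus strand). The level was 2.72 and 2.23 with shRNA1 and DEX, 2.89 and 1.83 with shRNA2 and DEX, 2.71 and 2.09 with the control virus and DEX, and 1.23 and 1.09 without DEX. The 6 arrays with DEX overlapped one another and all lay above both arrays without it. DEX in control cells gave a difference of 1.24, a fold of 2.37 (interval 0.13 to 2.36; 1.48 and 1.01 on the slides). Above the control virus without DEX, the difference was 1.32 for shRNA1 (interval 0.20 to 2.43; 1.49 and 1.14 on the slides) and 1.20 for shRNA2 (0.08 to 2.32; 1.66 and 0.74). At equal DEX the hairpins differed from the control virus by 0.07 (shRNA1, interval -1.04 to 1.19) and -0.04 (shRNA2, interval -1.16 to 1.07), which leaves room for about a doubling either way. The group means with DEX were 2.48 ± 0.35 with shRNA1, 2.36 ± 0.75 with shRNA2 and 2.40 ± 0.44 with the control virus (SD, n = 2 each), closer together than the arrays within a group, and 1.16 ± 0.10 without DEX.

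The other inhibitors of signalling were less uniform. Nfkbia encodes the inhibitor that keeps NF-kappaB in the cytoplasm (chromosome 12, probe spanning 56590945 to 56591440, minus strand). It had levels of 2.13 and 1.07 with shRNA1 and DEX, 2.80 and 1.13 with shRNA2 and DEX, 1.82 and 1.17 with the control virus and DEX, and 1.06 and 0.87 without DEX. Every array with DEX was again above both arrays without it, but by 0.01 at the closest, and slide 1 was higher than slide 2 in every group. The difference with DEX in control cells was 0.53 (interval -1.04 to 2.10), and that of shRNA1 against the control virus without DEX was 0.63 (1.07 and 0.20 on the slides). With shRNA2 it was 1.00 (1.74 and 0.25), or 0.16 to 1.83 with 1 of the shRNA2 arrays left out of the fit without a block. For Ddit4, whose product restrains the mTOR kinase (chromosome 10, 59412486 to 59412545, minus strand), the level was 4.21 and 3.11 with shRNA1 and DEX, 3.48 and 3.14 with shRNA2 and DEX, 4.01 and 3.01 with the control virus and DEX, and 3.41 and 1.83 without DEX. All 3 groups with DEX were higher than the one without on each slide, yet the groups overlapped, and slide 1 read higher than slide 2 in every group. The within-slide differences with DEX in control cells were 0.59 and 1.18 (mean 0.89, interval -0.76 to 2.53). The interval with the slide as a block was 0.09 to 1.68 (limma adjusted p = 0.442). With 1 array without DEX left out of the fit without a block, that mean was 0.095 to 1.68. Against the control virus without DEX, the slides gave 0.80 and 1.28 with shRNA1 (mean 1.04) and 0.07 and 1.31 with shRNA2 (mean 0.69). Errfi1 encodes an inhibitor of the EGF receptor family (chromosome 4, 150242886 to 150242945, plus strand). Its level was -4.49 and -2.86 with shRNA1 and DEX, -3.58 and -2.22 with shRNA2 and DEX, -3.41 and -1.75 with the control virus and DEX, and -2.65 and -2.39 without DEX. The -4.49 of shRNA1 on slide 1 lay near the lowest signal of that array that was well above background (-5.32). No common direction with DEX appeared: the slides gave -0.76 and 0.64 in control cells (mean -0.06, interval -2.03 to 1.91). With shRNA1 the level was lower than with the control virus and DEX by a similar amount on each slide (-1.08 and -1.11; mean -1.10, interval -3.07 to 0.87), and it was the one member at least 2-fold lower on both slides, where 0.664% of all genes were. That size depended on the background correction: with normexp the difference was -0.43. With 1 array of the control virus with DEX left out it was -0.27 (slide 2 array) or -1.93 (slide 1 array). These fits have no block and set 1 slide of the control virus against both of shRNA1. Slide 2 read higher in every group, so the difference between slides enters these values. With the slide as a block and all arrays, the interval was -2.06 to -0.14 (limma adjusted p = 0.274).

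Among the transcription factors, Klf9, a Krüppel-like zinc finger protein, and Zbtb16, the zinc finger repressor PLZF, were higher with DEX in control cells without overlap. Klf9 (chromosome 19, 23240410 to 23240469, plus strand) was at -0.63 and 0.08 with shRNA1 and DEX, -0.24 and 0.48 with shRNA2 and DEX, 0.07 and 0.42 with the control virus and DEX, and -0.69 and -0.45 without DEX. The difference with DEX in control cells was 0.82 (interval -0.17 to 1.81, and 0.28 to 1.36 with the slide as a block, limma adjusted p = 0.254). Against the control virus without DEX, it was 0.69 with shRNA2, again without overlap, and 0.30 with shRNA1, where the groups overlapped and slide 1 gave 0.06. Zbtb16 (chromosome 9, 48462419 to 48462478, minus strand) was at -0.29 and -0.25 with shRNA1 and DEX, 0.32 and 0.11 with shRNA2 and DEX, 0.19 and 0.15 with the control virus and DEX, and -0.86 and -0.25 without DEX. It read lower with shRNA1 than in the other groups with DEX on both slides, and near the slide 2 array without DEX. In control cells the difference with DEX was 0.72 (interval -0.05 to 1.50, and 0.09 to 1.36 with the slide as a block, limma adjusted p = 0.420). Against the control virus without DEX it was 0.77 with shRNA2 and 0.28 with shRNA1. Measured directly, in a comparison added after the data were seen, shRNA2 was higher than shRNA1 by 0.49 (interval -0.28 to 1.26; limma adjusted p = 1), with no overlap, as 5.19% of all genes were. That comparison called 0% of genes, with 437 (2.28%) at an unadjusted p under 0.05.

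Cebpd, a leucine zipper transcription factor of myeloid differentiation and inflammation, varied most between arrays of 1 group (chromosome 16, 15888459 to 15888518, plus strand). The level was 0.15 and 0.01 with shRNA1 and DEX, 2.19 and 0.50 with shRNA2 and DEX, -0.29 and 0.04 with the control virus and DEX, and -1.65 and 0.75 without DEX. The 2 arrays without DEX were farther apart than any pair of group means, and the highest array was that of shRNA2 on slide 1. DEX in control cells gave 1.36 on slide 1 and -0.71 on slide 2 (mean 0.32, interval -1.81 to 2.45). Against the control virus with DEX, the difference with shRNA2 was 1.48 (interval -0.65 to 3.61; limma adjusted p = 1), without overlap (7.56% of all genes). It was 0.63 when the shRNA2 array on slide 1 was left out of the fit without a block. Granulocyte markers stood high on the same array. The summed relative signal of the 12 markers tested of 13 was 141 and 158 with shRNA1, 592 and 100 with shRNA2, 40.9 and 72.1 with the control virus and DEX, and 44.2 and 198 without DEX. S100a9, a neutrophil calcium-binding protein, and Mpo, the neutrophil peroxidase, had levels of 7.98 and 6.99 on the shRNA2 array of slide 1. All 12 markers were above background on all 8 arrays. Within each group, the array with the higher level of Cebpd was also that with the higher granulocyte sum in 3 of the 4 groups, all but shRNA1. For Nfkbia this held only with shRNA2, and in the other groups the array with the higher level had the lower granulocyte sum. Nfkbia was highest on that shRNA2 array as well. The summed signal of 8 megakaryocyte and platelet markers was also highest there, at 78.5 and 23.4 with shRNA1, 186 and 15.5 with shRNA2, 32.0 and 19.7 with the control virus and DEX, and 54.0 and 73.6 without DEX. The part of such cells in the levels of Cebpd and Nfkbia was not tested.

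**Figure D2:**
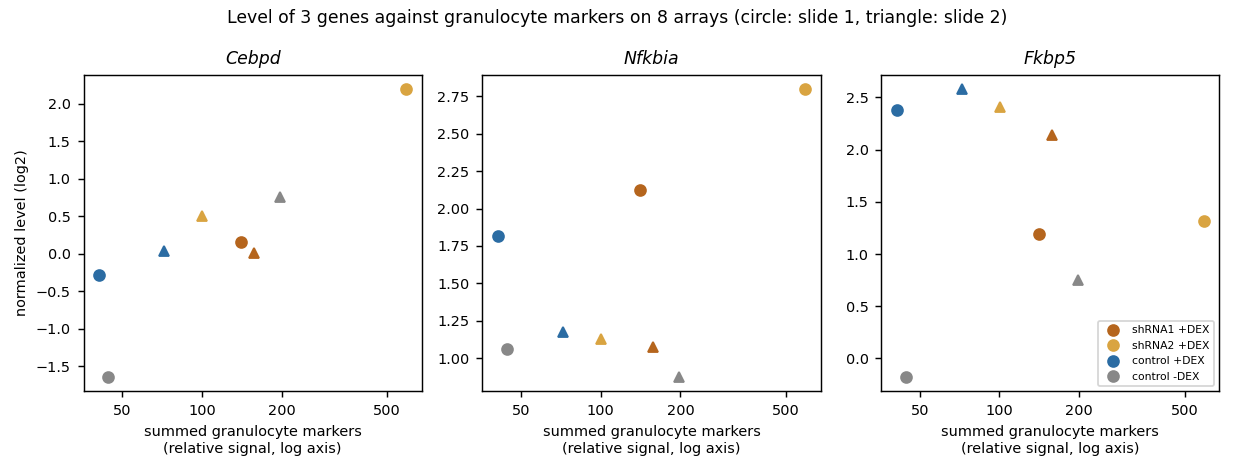
Level of Cebpd, Nfkbia and Fkbp5 (log2, vertical axes) against the summed relative signal of 12 granulocyte markers (log axis), 1 point per array, coloured by group. The shRNA2 array of slide 1 lies highest on both axes in the panels of Cebpd and Nfkbia, at a marker sum of 592. In the panel of Fkbp5 it is not the highest in level (1.31, where the highest array reads 2.58).

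Of the kinases, Sgk1, a serine and threonine kinase that acts on ion transport and cell survival (chromosome 10, 21719507 to 21719566, plus strand), had levels of -2.37 and -2.88 with shRNA1 and DEX, -1.95 and -2.39 with shRNA2 and DEX, -1.48 and -2.21 with the control virus and DEX, and -2.17 and -2.76 without DEX. On each slide the order was the same: control virus with DEX, shRNA2, control virus without DEX, shRNA1. The difference with DEX in control cells was 0.62 (interval -0.40 to 1.64, with 0.69 and 0.55 on the slides). The interval of that difference with the slide as a block was 0.15 to 1.09 (limma adjusted p = 0.331). With shRNA1, Sgk1 was lower than with the control virus and DEX by 0.89 and 0.67 on the slides (mean -0.78, interval -1.80 to 0.24), without overlap. With the slide as a block that interval was -1.25 to -0.31 (limma adjusted p = 0.243). With normexp the mean was -0.49. From the control virus without DEX, shRNA1 differed by -0.16 (interval -1.18 to 0.86). With shRNA2 the difference was -0.32 against the control virus with DEX and 0.30 against it without DEX. The means of neighbours in this order differed by less than the spread between the arrays of a group. Pdk4, the kinase that switches off pyruvate dehydrogenase (chromosome 6, 5433441 to 5433500, minus strand), read -5.81 and -8.18 with shRNA1, -6.87 and -8.12 with shRNA2, -7.55 and -6.70 with the control virus and DEX, and -6.62 and -6.96 without DEX. Each value was 0.37 to 1.84 below the lowest signal of its array that was well above background, so no order and no fold is given for it.

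The question which inductions persist under the hairpins was put by setting each hairpin group with DEX against the control virus without DEX. These comparisons share the 2 control arrays without DEX with one another and with the comparison of DEX in control cells, so their values are given side by side and not as separate support. Higher than without DEX were 7 of the 9 genes with shRNA1 (median 0.53, against 0.07 over all genes) and 8 with shRNA2 (0.77, against -0.04), next to 8 with the control virus (0.72, against -0.06). Over the other scalings and background corrections these numbers were 5 to 8 with shRNA1, 8 with shRNA2 and 8 to 9 with the control virus. Groups did not overlap, with the hairpin higher, for 3 genes with shRNA1 (Fkbp5, Tsc22d3 and Nfkbia; 13% of all genes) and for 5 with shRNA2 (these 3, Klf9 and Zbtb16; 8.18%), and Errfi1 was lower without overlap with shRNA1 (8.63%). At least 2-fold higher on both slides were Fkbp5 and Tsc22d3 with shRNA1 (2.24%) and Fkbp5 with shRNA2 (1.59%). No member passed in limma (adjusted p = 0.952 to 0.954 with shRNA1 and 1 with shRNA2), nor when the slide was a block (smallest adjusted p 0.187 with shRNA1 and 0.115 with shRNA2, both for Fkbp5), where 20 genes (0.105%) and 37 genes (0.193%) passed. Without the block 0% of genes passed in either, and 492 (2.57%) and 583 (3.05%) had an unadjusted p under 0.05. At that unadjusted p in the blocked fit, 3 members were higher (10.1%) and 1 lower (4.89%) with shRNA1, and 5 were higher with shRNA2 (5.2%). Fkbp5, Tsc22d3 and Nfkbia were the 3 genes of the 9 with all 6 arrays with DEX above both without it, which held for 3.15% of all genes (2.88% had all 6 below).

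**Figure D3:**
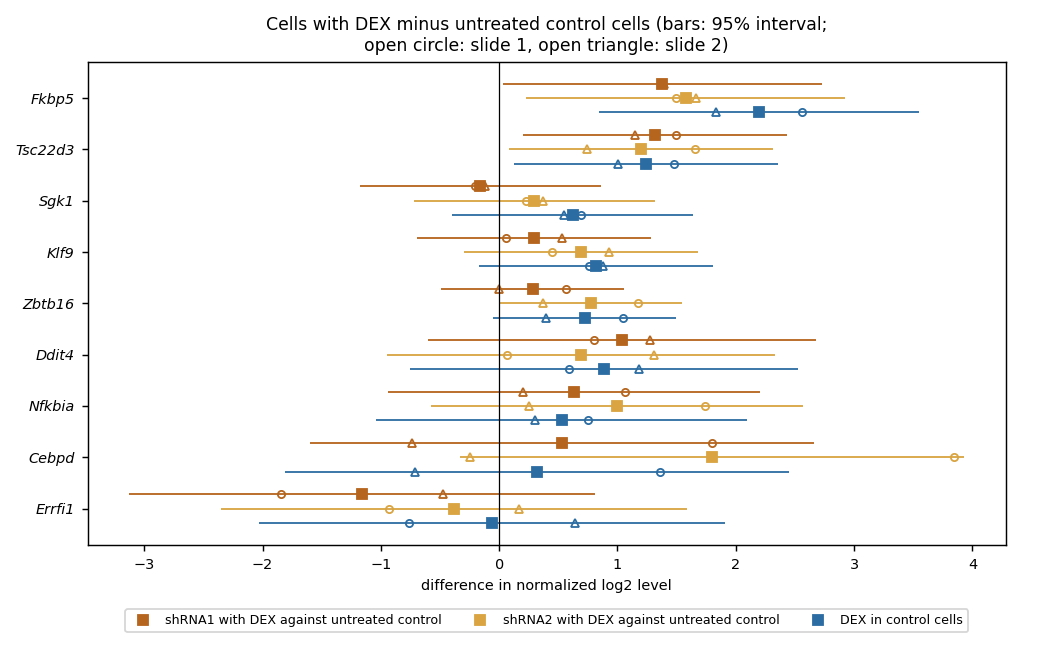
Difference in level from the control virus without DEX (log2) for the 9 genes, with shRNA1 and DEX, shRNA2 and DEX, and the control virus and DEX. Bars are 95% intervals of the fit without a block, and open symbols are the values of the 2 slides. Fkbp5 and Tsc22d3 lie between 1.20 and 2.20 in all 3 comparisons, and the slide values of Cebpd lie farthest apart.

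At equal DEX, 5 of the 9 genes were lower on both slides with shRNA1 than with the control virus (Fkbp5, Sgk1, Klf9, Zbtb16 and Errfi1), where 28.1% of all genes were, and 3 did not overlap (Fkbp5, Sgk1 and Zbtb16; 8.29%). Their median difference over the 9 was -0.44, against 0.15 over all genes. With shRNA2, 3 were lower on both slides (24%), none was lower without overlap (7.89%), and the median was -0.13, against 0.02. No member passed in limma with shRNA1 (adjusted p = 0.929 to 0.968; 0% of genes called, 396, or 2.07%, at an unadjusted p under 0.05) or shRNA2 (adjusted p = 1; 0% called, 243, or 1.27%, at an unadjusted p under 0.05), and in the fit by slide 0 genes (0%) passed with shRNA1 and 1 with shRNA2 (0.00523%), which was no member. In the blocked fit 3 members (Fkbp5, Sgk1 and Errfi1) were lower with shRNA1 at an unadjusted p under 0.05, where 4.98% of all genes were, and 0 differed with shRNA2 (5.74%). The scale of the arrays mattered here: with the median of each array in place of the 75th percentile, the median over all genes was -0.23 for both hairpins. That change moves all genes of a comparison by 1 constant, so values relative to the median of all genes are by construction the same on either scale. Relative to that median, 7 of the 9 were lower with shRNA1 and 6 with shRNA2. Other settings changed the side for some genes. With shRNA1, Ddit4, Nfkbia and Cebpd were above that median under quantile scaling (0.14, 0.16 and 0.24) and below it with normexp (-0.16, -0.19 and -0.078). Relative to the median of all genes, the difference with shRNA1 lay between -1.10 and -0.79 for Fkbp5, between -0.96 and -0.75 for Sgk1 and between -0.21 and 0.10 for Tsc22d3 over 5 ways of scaling or background correction.

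**Figure D4:**
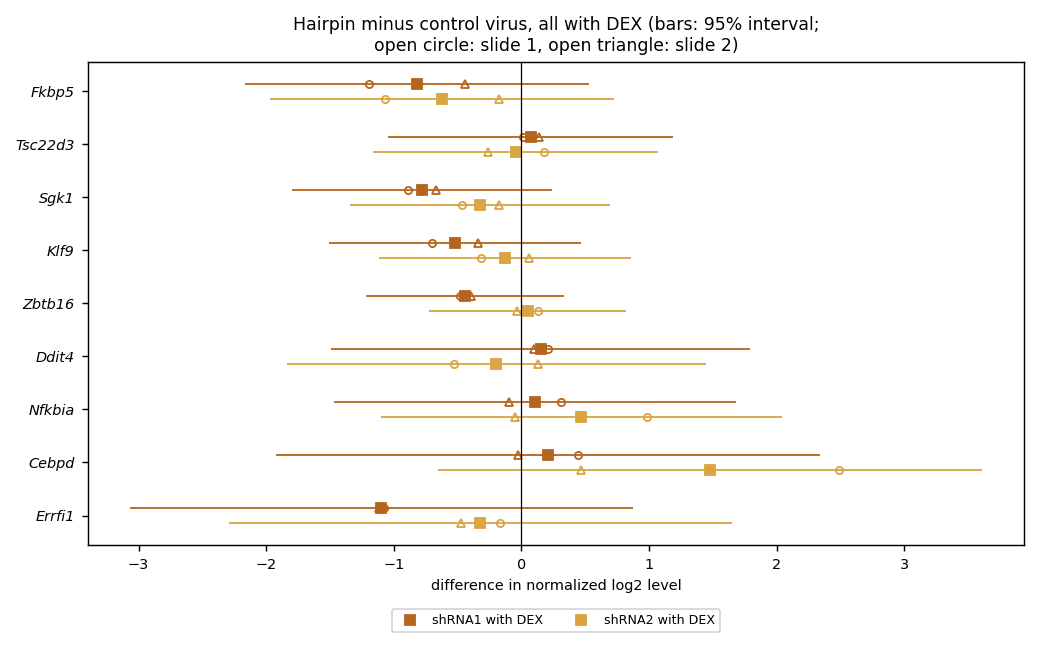
Difference in level between each hairpin and the control virus, all with DEX (log2), for the 9 genes; bars are 95% intervals of the fit and open symbols the values of the 2 slides. All intervals cross 0 in this fit, which has no block. With the slide as a block, those with shRNA1 exclude 0 for Fkbp5 (-1.50 to -0.14), Sgk1 (-1.25 to -0.31) and Errfi1 (-2.06 to -0.14), unadjusted. The means run from -1.10 for Errfi1 with shRNA1 (-0.43 with normexp) to 1.48 for Cebpd with shRNA2.

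Other targets of the receptor gave the setting for these values. Of 30 further targets, 26 were measured, and in control cells 15 were higher and 11 lower with DEX (median 0.05), 8 of them higher and 4 lower without overlap (10.8% and 15.6% of all genes). None passed in limma without a block, and 2 passed when the slide was a block, Rasd1, a Ras-related protein, and Mt2, a metallothionein. Mt2 had levels of 7.36 and 7.07 with shRNA1 and DEX, 6.85 and 7.47 with shRNA2 and DEX, 7.95 and 7.42 with the control virus and DEX, and 3.93 and 2.85 without DEX. Its difference with DEX in control cells was 4.29 (SE 0.47; limma adjusted p = 0.148, and 0.0407 with the block), and it was higher than without DEX by 3.82 with shRNA1 and 3.77 with shRNA2. Rasd1 was at -2.94 and -4.76 with shRNA1 and DEX, -2.84 and -3.98 with shRNA2 and DEX, -1.27 and -2.73 with the control virus and DEX, and -5.57 and -7.17 without DEX, where only the slide 1 array was well above background and the slide 2 value lay below the lowest signal of its array that was (-6.41). The difference with DEX was 4.29 on slide 1. The fit over both slides (limma adjusted p = 0.525, and 0.0274 with the block) rests in part on that slide 2 value, so it gives no measured size. Rasd1 lay between the control groups with either hairpin, with -1.85 (shRNA1) and -1.41 (shRNA2) against the control virus with DEX. On slide 1 it was higher than without DEX by 2.63 with shRNA1 and 2.73 with shRNA2. Cdkn1c, a cell cycle inhibitor, was higher with DEX in control cells by 2.18, Hif3a, a hypoxia-inducible factor subunit, by 1.53, and Per1, of the circadian clock, by 1.28. Against the control virus without DEX, Hif3a differed by 1.84 with shRNA1 and 1.58 with shRNA2, Per1 by 1.57 and 1.31, and Cdkn1c by 2.20 and 1.02. Cdkn1c read -2.43 and -1.95 with shRNA2, and -2.80 and -3.62 without DEX. Against the control virus with DEX, it was -1.15 with shRNA2, without overlap (7.89% of all genes). Rasd1, Mt2, Cdkn1c, Hif3a and Per1 were picked by their rise in control cells with DEX over these same arrays without DEX. That choice favours a positive hairpin difference from the control virus without DEX and a negative one from the control virus with DEX. These values are thus no separate support for either. Lower with DEX in control cells were the repressor Bcl6 (-2.00), the stress response gene Gadd45b (-1.36) and Sesn1, a sestrin (-0.67).

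The receptor gene Nr3c1 had levels of 1.59 and 2.26 with shRNA1 and DEX, 1.53 and 2.62 with shRNA2 and DEX, 1.91 and 2.91 with the control virus and DEX, and 2.15 and 2.62 without DEX, with overlap in every comparison of these groups. Its difference with DEX in control cells was 0.03 (interval -1.29 to 1.36), and against the control virus with DEX it was -0.49 with shRNA1 (-0.33 and -0.65 on the slides) and -0.34 with shRNA2 (-0.38 and -0.29), lower on both slides with either hairpin. Of 12 genes of the receptor and its partners, 10 were measured, 4 higher and 6 lower with DEX, and none passed in limma in any of the 5 comparisons, with or without the block.

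Over the 8 arrays, the genes whose levels were most like that of Fkbp5 by Pearson correlation included Camk1d (0.97), Tbc1d10a (0.96) and Fhod3 (0.96); the other 2 of the top 5 carried no gene symbol. For Tsc22d3 they were Cd200r1 (0.99), Pygl (0.99), Tmcc3 (0.98), Gm5547 (0.98) and N4bp2l1 (0.98). Among the 9 genes themselves, Fkbp5 and Klf9 were most alike (0.91), followed by Tsc22d3 and Nfkbia (0.83), and Nfkbia and Errfi1 least (-0.75). The arrays share 2 slides and 4 groups, so these are descriptions of 8 points.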

How the data were processed

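The 8 samples of total RNA carried Cy3, 1 sample per array. The deposited intensity is, per the file headers, the processed signal that Agilent Feature Extraction (version 10.1.1.1) made on a linear scale. Limma, without a version, is also named in the submitters' processing notes. The log2 values in a table the authors deposited served as an alternative. How they were made is not given in the sources used here. On each array they ranked the spots as the raw median signal did (Spearman correlation 1). Their median per array was 6.65 to 6.66. The 1377 control spots among 44397 and spots marked as outliers were left out, spots of a probe were averaged, 441 of 39429 probes lacking a usable spot were not used, and log2 signal minus the 75th percentile of the array was taken. Names came from a reference match for 26581 probes and from the files for 12848. A probe entered the tests if both arrays of some group read it well above background; a gene took its probe with the highest mean (3900 of 19130 genes had several). Saturation was seen for no member. No annotation of mm9 was used, so the exon or untranslated region under a probe is not stated.

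Groups were compared in 1 fit over 8 arrays (lmFit and eBayes of limma 3.58.1, R 4.3.3, two-sided), Benjamini-Hochberg adjusted over all genes, threshold 0.05; intervals are unadjusted. Replicate number and slide coincide. Arrays of one number deviated together from their group means (correlations 0.43 to 0.86 over 6 pairs of groups), so the slide was also fitted as a block. Alternatives were quantile and median scaling, normexp (offset 50, background capped at percentile 99 of its values), the authors' values, no filter on dim probes, the mean of a gene's probes, the block and each array left out; the block with each array left out and shRNA2 against shRNA1 were added after the data were seen. The fit was tested on simulated data. Named genes of the further lists were the 5 largest rises and 3 largest falls with DEX without overlap among other receptor targets, and Nr3c1. Also named were the 2 highest markers of the erythroid and of the granulocyte list, and the 5 genes most correlated with Fkbp5 and with Tsc22d3. Zfp36l2 was added as the target of the hairpins. Members and lists were chosen with earlier results of these data known. Tables and plots used data.table (version 1.17.8), Python 3.11.15, pandas 2.3.3 and matplotlib 3.10.9.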

Additional observations from a re-analysis of the deposited data

How the results depend on the processing

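Of 45 differences (9 genes in 5 comparisons), 26 kept their direction under all 15 alternatives, and none passed the threshold under any. Among these alternatives, those with an array left out were fitted without the slide block. Fkbp5 and Tsc22d3 kept their direction with DEX in control cells and in both comparisons of a hairpin with the control virus without DEX. In limma without a block, 0 genes passed in each comparison under every scaling, filter and array left out. With the replicate block, 45 genes passed for DEX in control cells, 0 for shRNA1 with DEX, 1 for shRNA2 with DEX, 20 for shRNA1 against the control virus without DEX and 37 for shRNA2. With 1 array left out of that fit as well, DEX in control cells called 2 and 11 genes without the slide 1 and slide 2 array of the control virus without DEX, 129 without either array of shRNA2 and 0 otherwise. For shRNA1 against the control virus without DEX these were 1, 19, 57 and 0, for shRNA2 1, 23, 12 (without shRNA2 on slide 1), 4 (on slide 2) and 0, for shRNA2 with DEX 9 without its slide 2 array and 0 otherwise, and for shRNA1 with DEX always 0. No member was called, and the limma adjusted p of Fkbp5 with DEX in control cells ranged from 0.0516 to 0.477 in these fits.

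Of the 19 that turned, 10 did so by a setting. With the median of the array as the scale, shRNA1 against the control virus with DEX gave -0.30 for Tsc22d3, -0.23 for Ddit4, -0.27 for Nfkbia and -0.17 for Cebpd, shRNA2 gave -0.20 for Zbtb16, shRNA1 against the control virus without DEX gave -0.0017 for Klf9 and -0.014 for Zbtb16, and DEX in control cells gave 0.020 for Errfi1. By its construction that scale shifts all genes of a comparison by 1 constant (the median over all genes was -0.23 for shRNA1 with DEX, against 0.15 with the 75th percentile), and the values relative to that median stayed as they were. Quantile scaling gave 0.00087 for Tsc22d3 with shRNA2 and DEX. Normexp gave 0.029 for Errfi1 with DEX in control cells and 0.025 for Sgk1 with shRNA1 against the control virus without DEX, and the authors' deposited values gave 0.062 for Errfi1 with DEX in control cells. The cause of these last 4 was not tested.

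Leaving out 1 array in the fit without a block turned further values. That fit then sets 1 slide of a group against both slides of the other, so slide differences enter the ranges. Within slides, some that turned kept 1 sign, such as Ddit4 with shRNA2 against the control virus without DEX (0.07 and 1.31). Others did not, such as Cebpd with DEX in control cells (1.36 and -0.71). With DEX in control cells the range was -0.88 to 1.52 for Cebpd and -0.89 to 0.77 for Errfi1. With shRNA1 and DEX it was -0.24 to 0.39 for Tsc22d3, -0.40 to 0.71 for Ddit4 and -0.42 to 0.63 for Nfkbia. With shRNA2 and DEX it was -0.58 to 0.49 for Tsc22d3, -0.69 to 0.043 for Sgk1, -0.49 to 0.23 for Klf9, -0.054 to 0.15 for Zbtb16, -0.69 to 0.30 for Ddit4, -0.37 to 1.31 for Nfkbia and -1.15 to 0.51 for Errfi1. Against the control virus without DEX it was -0.45 to 0.14 for Sgk1, -0.060 to 0.65 for Klf9, -0.019 to 0.59 for Zbtb16 and -0.67 to 1.73 for Cebpd with shRNA1, and -0.10 to 1.48 for Ddit4 and -1.06 to 0.30 for Errfi1 with shRNA2. The number of the 9 genes higher with DEX in control cells was then 7 to 9, the fewest without the slide 1 array of the control virus without DEX. For shRNA1 at equal DEX it was 1 to 4 (1 without the slide 2 array of the control virus with DEX or the slide 1 array of shRNA1) and for shRNA2 3 to 6 (6 without the slide 1 array of the control virus with DEX).

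With 2 arrays a group the precision is low, and a gene that did not pass is not shown to be unchanged.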
